A study of Mus musculus with 12 samples.

Results

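The 6 genes described here are *Gm4952*, *Glyat*, *Keg1*, *Acsm1*, *Acsm3*, and *Acsm5*, which encode relatives of glycine N-acyltransferase and acyl-CoA synthetases of the medium-chain family. They are 6 of the 22456 genes in the expression table and were taken from it by symbol. They were selected on their RPKM values in these same libraries, with *Gm4952* among the genes with the largest genotype difference in fasted liver. Their levels, their genotype differences, and their feeding responses are therefore given as a description, without a test. Exon inclusion and the other genes of the pathway were tested, though the pathway lists too were drawn up with earlier results of these data known. Liver RNA-Seq covered 12 male BALB/cByJ mice of genotype *Lpin1*+/+ or *Lpin1*-/-, either fasted or refed, which makes 4 groups of 3. The *Lpin1*-/- mice carry the fatty liver dystrophy (fld) mutation in every tissue, and the *Lpin1*+/+ mice were their littermates, all 2 to 8 months old and fed chow. Fasted livers were taken after a 16-hour fast with the mice caged singly. Refed livers were taken from mice that had chow for a further 5 hours, so feeding state and time of day cannot be told apart.

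Glycine N-acyltransferase works in the mitochondria of liver and kidney, where it joins glycine to acyl-CoAs such as benzoyl-CoA and the products leave in the urine as acylglycines, hippurate among them. Its substrates are made by the mitochondrial acyl-CoA synthetases of the ACSM family, which attach coenzyme A (CoA) to benzoate, salicylate, and short- and medium-chain fatty acids. The pair of reactions consumes ATP and glycine, and is known as the glycine conjugation pathway of detoxification.

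Values are RPKM, read counts scaled to the length of the transcript and the depth of the library, so that levels of different genes can be compared. Fold changes are differences of log2(RPKM + 1) with their SE from a limma fit of the 4 groups, and they understate the changes of low genes. A gene was called at a Benjamini-Hochberg adjusted p below 0.05 over the 11507 genes whose mean level reached 0.5 RPKM. All 6 genes passed that minimum. *Lpin1* itself was between 0.00573 and 0.0597 RPKM in the 6 *Lpin1*-/- libraries. It was 22.0, 0.726, and 1.76 RPKM in fasted and between 0.784 and 2.92 RPKM in refed *Lpin1*+/+ libraries, a wide spread set by the first fasted library. No library went against its genotype label. The relative depth of the libraries ran from 0.866 to 1.16 times that of the first fasted *Lpin1*+/+ library.

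The genes form clusters on 2 chromosomes (GRCm38, GENCODE M21), all on the plus strand. *Gm4952* (ENSMUSG00000071633, chr19:12599974-12628251), *Glyat* (ENSMUSG00000063683, chr19:12633308-12653911), and *Keg1* (ENSMUSG00000024694, chr19:12695786-12719902) lie in that order within 119.9 kb. *Acsm5* (ENSMUSG00000030972, chr7:119519463-119545551), *Acsm1* (ENSMUSG00000033533, chr7:119607026-119662515), and *Acsm3* (ENSMUSG00000030935, chr7:119760923-119787513) lie within 268.1 kb. *Acsm3*, *Acsm5*, *Acsm1*, and *Keg1* each overlap annotated genes of the opposite strand. The kit marks strand, but the strand setting of the counting is not given in the sources used here.

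The 3 chromosome 19 genes have coding regions of 888 bases in *Gm4952* and *Glyat* and 885 bases in *Keg1*. *Gm4952* and *Glyat* matched at 75.3% of aligned coding bases, *Gm4952* and *Keg1* at 73.1%, and *Glyat* and *Keg1* at 73.1%. The ACSM coding regions were less alike, with 62.3% for *Acsm1* and *Acsm3*, 63.9% for *Acsm1* and *Acsm5*, and 64.4% for *Acsm3* and *Acsm5*. Of all windows of 69 bases, the read length, in the annotated transcripts of each gene, 0 occurred in a transcript of another gene. The most similar gap-free stretch of 60 coding bases is shown because it is where reads of the 3 chromosome 19 genes come closest. Capitals mark the 51 bases that all 3 genes share.
Gm4952: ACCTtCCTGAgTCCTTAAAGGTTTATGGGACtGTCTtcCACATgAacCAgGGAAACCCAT
Glyat: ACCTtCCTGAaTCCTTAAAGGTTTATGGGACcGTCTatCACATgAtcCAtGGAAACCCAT
Keg1: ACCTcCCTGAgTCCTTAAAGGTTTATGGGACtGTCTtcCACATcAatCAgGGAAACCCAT

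The regions around the RefSeq start sites (GRCm38.p6, 250 bases before to 50 after) are printed for 3 genes, chosen after their values were seen. These had the largest refed genotype difference relative to its SE: *Gm4952* (chr19:12599734-12600033), *Acsm1* (chr7:119617562-119617861), and *Acsm5* (chr7:119526015-119526314), all on the plus strand. Capitals mark matches to any of 5 short motifs, searched on both strands.
Gm4952: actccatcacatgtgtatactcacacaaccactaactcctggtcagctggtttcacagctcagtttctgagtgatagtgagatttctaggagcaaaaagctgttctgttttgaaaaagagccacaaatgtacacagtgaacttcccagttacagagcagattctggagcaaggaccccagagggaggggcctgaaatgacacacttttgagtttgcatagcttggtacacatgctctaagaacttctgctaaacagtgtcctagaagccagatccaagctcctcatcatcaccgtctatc
Acsm1: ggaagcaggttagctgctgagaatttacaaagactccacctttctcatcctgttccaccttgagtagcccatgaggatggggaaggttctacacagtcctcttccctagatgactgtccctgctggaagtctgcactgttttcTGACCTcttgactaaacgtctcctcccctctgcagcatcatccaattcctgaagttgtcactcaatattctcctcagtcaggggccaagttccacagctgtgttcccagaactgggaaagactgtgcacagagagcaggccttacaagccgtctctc
Acsm5: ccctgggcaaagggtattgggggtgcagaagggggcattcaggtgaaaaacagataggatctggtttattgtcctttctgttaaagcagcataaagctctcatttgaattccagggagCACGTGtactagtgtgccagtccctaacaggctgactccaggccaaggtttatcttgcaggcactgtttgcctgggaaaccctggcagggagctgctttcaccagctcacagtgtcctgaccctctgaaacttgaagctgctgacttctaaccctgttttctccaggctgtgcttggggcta

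The nuclear receptor half-site AGGTCA was found in the *Acsm1* region and in 16.3% of all 32851 regions of the same length. The E-box CACGTG was found in the *Acsm5* region and in 7.15% of all regions. The *Acsm3* region (chr7:119760673-119760972) held the forkhead site TGTTTAC, which 3.65% of all regions hold, and the C/EBP site TTGCNNAA, which 10.8% hold. The HNF1 half-site GTTAAT, in 7.10% of all regions, was in none of the 6 genes' regions, and the regions of *Gm4952*, *Glyat*, and *Keg1* held no match to any of the 5 motifs. These letters describe the printed windows only, and they show neither a site nor a factor.

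Among the glycine acyltransferase relatives, *Gm4952*, a predicted glycine N-acyltransferase gene, differed most between genotypes. Its level was 35.0, 53.0, and 87.7 RPKM in fasted *Lpin1*+/+ liver and 1.52, 1.78, and 2.62 RPKM in fasted *Lpin1*-/- liver. In refed liver it was 36.5, 13.5, and 38.3 RPKM in *Lpin1*+/+ and 0.983, 2.09, and 3.11 RPKM in *Lpin1*-/-. Every *Lpin1*-/- library thus stayed far below every *Lpin1*+/+ library in both feeding states. The mean was 29.7-fold lower in *Lpin1*-/- in the fasted state and 14.3-fold lower in the refed state, with fitted log2 differences of -4.24 ± 0.43 and -3.25 ± 0.43 (SE, n = 3 per group).

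*Glyat*, which encodes the glycine N-acyltransferase itself, was the most abundant of the 6 genes in every group. It was 220.5, 393.5, and 329.5 RPKM in fasted *Lpin1*+/+ liver, against 114.2, 99.7, and 80.6 RPKM in fasted *Lpin1*-/- liver. In refed liver its level was 272.5, 191.5, and 273.1 RPKM in *Lpin1*+/+ and 94.1, 183.6, and 165.5 RPKM in *Lpin1*-/-. The groups were well apart in the fasted state and did not overlap in the refed state either, though the highest *Lpin1*-/- library came close to the lowest *Lpin1*+/+ library. The fitted log2 differences between genotypes were -1.64 ± 0.30 fasted and -0.77 ± 0.30 refed.

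*Keg1*, a relative of *Glyat* named for its expression in kidney, had 33.3, 29.1, and 25.3 RPKM in fasted *Lpin1*+/+ liver and 5.15, 7.71, and 5.06 RPKM in fasted *Lpin1*-/- liver. After refeeding it had 55.1, 20.5, and 91.4 RPKM in *Lpin1*+/+ and 15.2, 14.9, and 20.3 RPKM in *Lpin1*-/-. The *Lpin1*-/- values were close together in both states, while the refed *Lpin1*+/+ values spread widely and the lowest of them lay just above the highest *Lpin1*-/- value. The fitted log2 differences were -2.13 ± 0.41 fasted and -1.45 ± 0.41 refed.

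**Figure D1:**
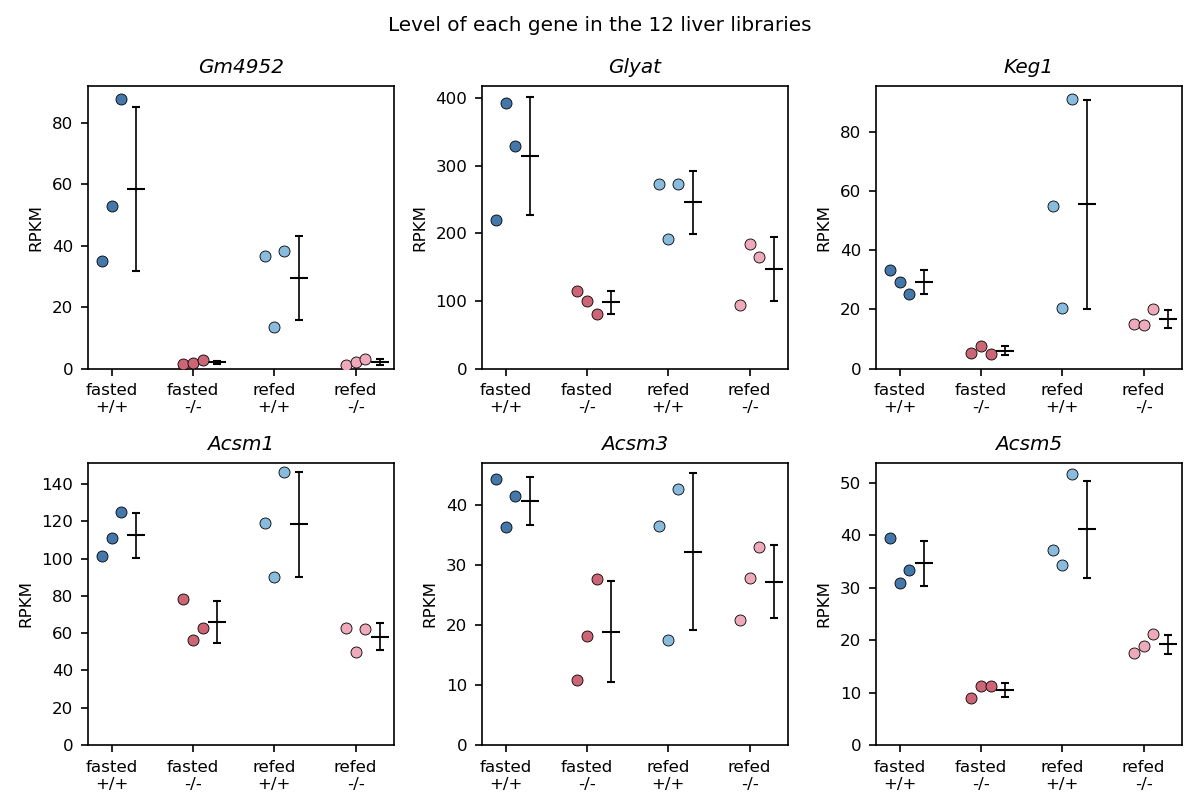
Level of each of the 6 genes (RPKM, linear axis from 0) in the 12 liver libraries, with the mean and SD of the 3 libraries of a group to the right of their points. The fasted *Lpin1*-/- libraries sit below the fasted *Lpin1*+/+ libraries for every gene, and the second refed *Lpin1*+/+ library is the lowest of its group for all 6 genes.

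*Acsm1*, which encodes a mitochondrial synthetase that activates butyrate and benzoate, was the most abundant of the 3 ACSM genes. It was 101.1, 111.0, and 125.2 RPKM in fasted *Lpin1*+/+ liver and 78.1, 56.3, and 63.0 RPKM in fasted *Lpin1*-/- liver. In refed liver it was 118.9, 90.2, and 146.5 RPKM in *Lpin1*+/+ and 62.7, 49.7, and 62.0 RPKM in *Lpin1*-/-. *Acsm1* showed the smallest fasted difference of the 6 genes and, unlike the other 5, a fitted refed difference larger in size than the fasted one, at -0.77 ± 0.21 fasted and -0.995 ± 0.21 refed.

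*Acsm5*, another mitochondrial member of the family, was 39.4, 31.0, and 33.4 RPKM in fasted *Lpin1*+/+ liver and 8.99, 11.3, and 11.2 RPKM in fasted *Lpin1*-/- liver. Refed levels were 37.2, 34.3, and 51.7 RPKM in *Lpin1*+/+ and 17.5, 18.8, and 21.2 RPKM in *Lpin1*-/-. The genotypes did not overlap in either state, and the spread within groups was small. The fitted log2 differences were -1.63 ± 0.19 fasted and -1.04 ± 0.19 refed.

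*Acsm3*, known also as the SA gene for its link to hypertension in rats, was 44.3, 36.3, and 41.4 RPKM in fasted *Lpin1*+/+ liver and 10.8, 18.2, and 27.6 RPKM in fasted *Lpin1*-/- liver. In refed liver the values were 36.6, 17.5, and 42.6 RPKM in *Lpin1*+/+ and 20.9, 27.8, and 33.0 RPKM in *Lpin1*-/-. *Acsm3* was the 1 gene whose refed groups overlapped. Its fitted log2 differences were -1.16 ± 0.36 fasted and -0.17 ± 0.36 refed.

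Because these are bulk livers, fewer cells of a type and less RNA per cell cannot be told apart. In fasted liver all 6 genes had every *Lpin1*-/- library below every *Lpin1*+/+ library, a contrast that chose them. Of all genes tested, 22.2% were separated in that direction in fasted liver, and 18.8% were called there in either direction.

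The refed genotype comparison asked whether the differences were still present after 5 hours of feeding. Because the genes were taken with their refed levels in view as well, it too is a description, and no p-value is given for them. The fitted differences had 95% intervals of -4.19 to -2.30 for *Gm4952*, -1.42 to -0.12 for *Glyat*, -2.35 to -0.54 for *Keg1*, -1.45 to -0.54 for *Acsm1*, -0.95 to 0.62 for *Acsm3*, and -1.46 to -0.63 for *Acsm5*. These intervals take no account of how the genes were chosen, and no call is made for them. In this comparison 4.07% of all genes tested were called lower and 6.67% in either direction. Every *Lpin1*-/- library lay below every *Lpin1*+/+ library for 5 of the 6 genes, as it did for 19.1% of all genes tested. Nothing is read from these counts, since the levels they rest on were known when the genes were taken.

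The refed differences moved with single libraries. The second refed *Lpin1*+/+ library was the lowest of its group, and the third the highest, for all 6 genes. Over the 12 fits that each omitted a library, the log2 difference ran from -3.71 to -2.96 for *Gm4952*, -0.95 to -0.47 for *Glyat*, -2.03 to -0.98 for *Keg1*, -1.18 to -0.83 for *Acsm1*, -0.54 to 0.074 for *Acsm3*, and -1.16 to -0.87 for *Acsm5*. The value of *Keg1* was -2.03 without the second and -0.98 without the third refed *Lpin1*+/+ library, and that of *Glyat* was -0.47 without the first refed *Lpin1*-/- library. After rescaling each library by its median ratio the refed difference was -3.11 for *Gm4952* and -0.88 for *Acsm1*.

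**Figure D2:**
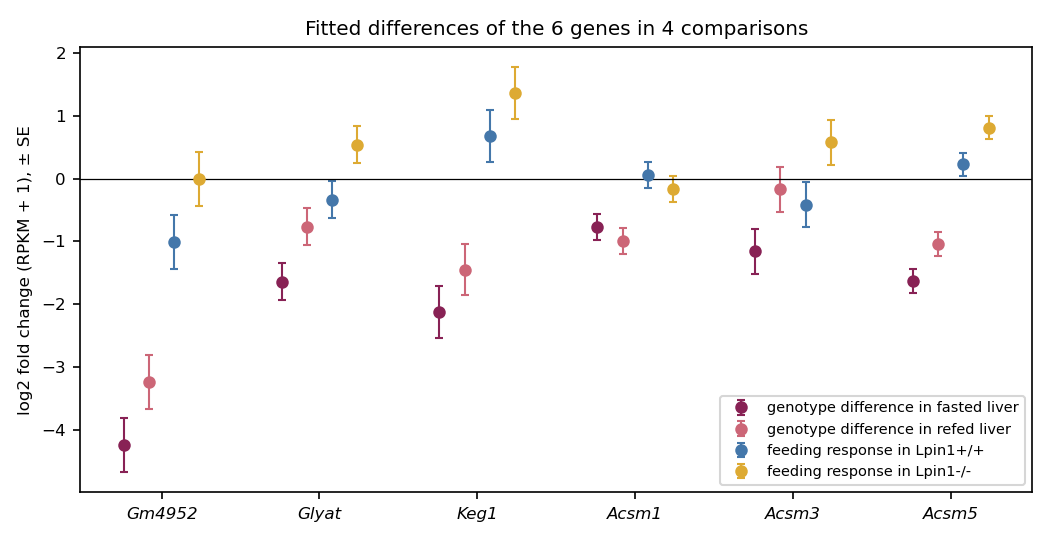
Fitted log2 fold change of each gene (log2(RPKM + 1), points, with SE as bars) for the genotype difference in fasted and refed liver and the feeding response in each genotype, n = 3 libraries per group. Genotype differences of the 6 genes are all below 0, from -4.24 to -0.17, while feeding responses lie on both sides of 0.

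The feeding responses asked how 5 hours of food moved the 6 genes in each genotype, and they are described without a test. In *Lpin1*+/+ liver the refed and fasted libraries overlapped for all 6 genes, with fitted responses from -1.002 ± 0.43 (*Gm4952*) to 0.68 ± 0.41 (*Keg1*). Over 12 fits that each omitted a library these responses ran from -1.32 to -0.53 for *Gm4952*, -0.57 to -0.15 for *Glyat*, 0.21 to 1.26 for *Keg1*, -0.11 to 0.24 for *Acsm1*, -0.66 to -0.04 for *Acsm3*, and 0.053 to 0.34 for *Acsm5*. For *Keg1* the low end came without the third and the high end without the second refed *Lpin1*+/+ library, and for *Gm4952* and *Acsm3* the value nearest 0 came without the second. In *Lpin1*-/- liver the refed libraries lay above all fasted libraries for *Keg1* (1.36 ± 0.41, mean 2.81-fold higher) and *Acsm5* (0.81 ± 0.19, mean 1.83-fold higher). The share of all genes separated by feeding in this way was not counted, so nothing is read from these overlaps. The response of *Gm4952* in *Lpin1*-/- liver was -0.00 ± 0.43, at means of 1.97 RPKM fasted and 2.06 RPKM refed. *Glyat* (0.54 ± 0.30) and *Acsm3* (0.58 ± 0.36) had positive responses in *Lpin1*-/- liver and negative ones in *Lpin1*+/+ liver (-0.33 ± 0.30 and -0.41 ± 0.36), with overlapping groups in each case. *Acsm1* had 0.05 ± 0.21 in *Lpin1*+/+ and -0.17 ± 0.21 in *Lpin1*-/-. Of all genes tested, 1.72% were called for the feeding response in *Lpin1*+/+, 20.7% for that in *Lpin1*-/-, and 1.28% for the interaction of genotype and feeding. The interaction, the feeding response of *Lpin1*-/- minus that of *Lpin1*+/+, was between 0.59 ± 0.27 (*Acsm5*) and 1.00 ± 0.61 (*Gm4952*) for 5 genes and -0.22 ± 0.30 for *Acsm1*. The median log2 response of all genes was 0.19 in *Lpin1*+/+ and 0.25 in *Lpin1*-/-, and rescaling each library by its median ratio brought these to -0.00 and 0.06. After it the *Acsm5* response was -0.01 in *Lpin1*+/+, a change of sign, and 0.58 in *Lpin1*-/-, and the *Acsm1* response in *Lpin1*-/- was -0.42.

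The top of the order of the 6 levels was the same in all groups, and the rest was not. *Glyat* was highest and *Acsm1* next in all 4 groups, at mean levels of 314.5 and 112.4 RPKM in fasted *Lpin1*+/+ liver. *Gm4952* had a mean of 58.6 RPKM in that group, with an SD of 26.8 that covered the means of *Acsm3* (40.7) and *Acsm5* (34.6) but not that of *Keg1* (29.25). In the other 3 groups *Gm4952* had the lowest mean of the 6, though in refed *Lpin1*+/+ liver its mean of 29.5 RPKM was within the spread of *Acsm3* (32.2 ± 13.1, SD). *Keg1* had the lowest mean in fasted and the third highest in refed *Lpin1*+/+ liver, at 55.6 ± 35.4 RPKM (SD). The summed level of the 3 chromosome 19 genes was 288.9 to 475.7 RPKM in fasted *Lpin1*+/+ and 88.2 to 120.9 RPKM in fasted *Lpin1*-/- liver, and 225.5 to 402.8 against 110.3 to 200.6 RPKM in refed liver. That of the 3 chromosome 7 genes was 178.2 to 200.02 RPKM against 85.8 to 101.8 RPKM in fasted liver and 142.1 to 240.9 against 96.4 to 116.1 RPKM in refed liver.

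Over the 12 libraries, which share the genotype and feeding groups, the log2 levels of *Keg1* and *Acsm5* were the most alike pair among the 6, with a Pearson r of 0.95, although they lie on different chromosomes. The least alike pair was *Acsm1* and *Acsm3* (r = 0.52), neighbours in 1 cluster. Across all genes tested, the 3 genes most like *Gm4952* were *Ripply1* (r = 0.99), *Meiob* (0.98), and *Vnn1* (0.97), the last a pantetheinase that releases pantothenate from a breakdown product of CoA. Those most like *Glyat* were *Timd2* (0.98), *Ggact* (0.98), and *Ccs* (0.97), and those most like *Keg1* were *Lin7a* (0.96), *Cyp7b1* (0.96), and *Gba2* (0.95). For *Acsm1* they were *Upb1* (0.96), the peroxisomal thiolase gene *Acaa1b* (0.96), and *Aox3* (0.96). For *Acsm3* they were the bile acid transporter gene *Slc10a1* (0.98), *Mccc2* (0.97), and the fatty acid hydroxylase gene *Cyp4a14* (0.95). For *Acsm5* they were *Ick* (0.98), *C1rl* (0.98), and the mitochondrial desuccinylase gene *Sirt5* (0.98). These correlations describe 4 groups of mice and carry no test.

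Genes next to the clusters were compared to see how far along the chromosome the differences ran, in a window of 500 kb chosen after the values were seen. Of the 14 other tested genes in both windows, 3 were called in fasted liver and 0 in refed liver (limma). At an unadjusted p below 0.05 there were 5 in fasted and 2 in refed liver, and the median log2 differences were -0.15 and -0.00. On chromosome 19 none of the 5 other genes was called in either state. *Zfp91*, whose lower coordinate lies 163.7 kb from the start of *Gm4952*, had 0.37 ± 0.38 fasted and 0.28 ± 0.38 refed. On the other side, *Dtx4* had 0.19 ± 0.33 fasted and, in refed liver, 1.06 ± 0.33 (adjusted p = 0.0817), opposite in sign to the 3 cluster genes, and *Mpeg1* had -0.82 ± 0.79 and -0.62 ± 0.79. Inside the chromosome 7 cluster, *Acsm2*, a medium-chain synthetase best known in kidney, was at 0.262 to 1.28 RPKM in all 12 libraries, with -0.37 ± 0.19 fasted (adjusted p = 0.199) and -0.24 ± 0.19 refed (adjusted p = 0.488). *Acsm4* was at 0 to 0.0895 RPKM and was too low to test. *Thumpd1*, between *Acsm1* and *Acsm3*, had 0.48 ± 0.21 fasted and 0.14 ± 0.21 refed. *Eri2*, which overlaps *Acsm3* on the other strand, had -0.26 ± 0.17 fasted and 0.22 ± 0.17 refed at a mean of 1.32 RPKM. *Pdilt*, which overlaps *Acsm5* on the other strand, had -0.83 ± 0.35 fasted (limma, adjusted p = 0.127) and -0.16 ± 0.35 refed at a mean of 4.29 RPKM. The 3 genes called in fasted liver lay 314.8 to 398.9 kb beyond *Acsm3*: *Tmem159* (1.13 ± 0.35, higher), *Anks4b* (-3.01 ± 0.20, lower), and *Crym* (-1.52 ± 0.41, lower), with limma adjusted p of 0.0413, 4.12e-05, and 0.0252.

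**Figure D3:**
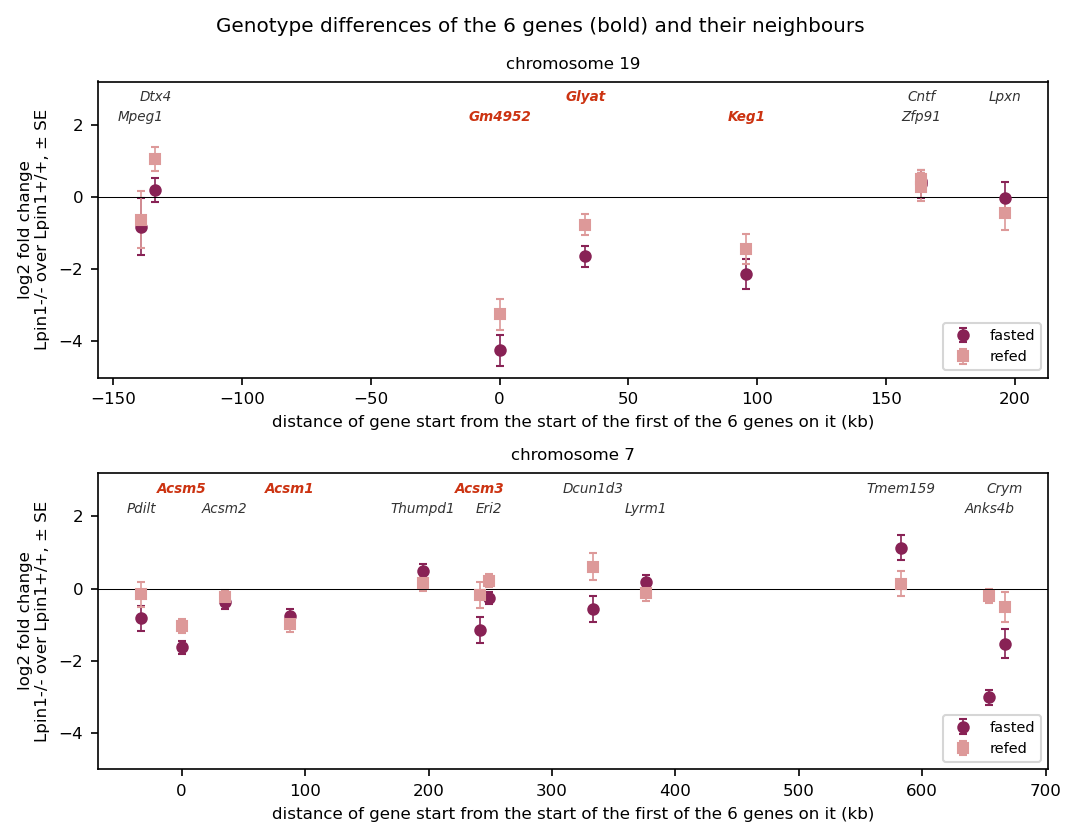
Genotype difference (log2 fold change with SE, fasted as circles and refed as squares, n = 3 libraries per group) against the distance of each gene's lower coordinate, whatever its strand, from that of the first of the 6 genes on the chromosome, for tested genes within 500 kb. Names of the 6 genes are in bold. On chromosome 19 the points of *Gm4952* and *Keg1* lie below those of every neighbour, while on chromosome 7 fasted *Anks4b* (-3.01) lies below all 3 ACSM genes and refed *Acsm3* (-0.17) lies among its neighbours.

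Exon inclusion was not itself used to choose the 6 genes, but the ratio tested is not free of their levels. The skipped exon events deposited for fasted liver held 116 events of the 6 genes, of which 104 had at least 10 counts in every library, and those for refed liver held 100 events with 92 tested. Many share an exon, so the events are not independent. By limma on the log2 ratio of inclusion to skipping counts per length, 0 of 104 passed in fasted liver, where 11.3% of all events were called, and 0 of 92 in refed liver, where 0.97% were. At an unadjusted p below 0.05 there were 5 in fasted and 8 in refed liver. Of all events tested, 18145 of 69644 in fasted and 9301 of 65231 in refed liver were below it. *Gm4952* was testable in 1 event only in each state, since its low counts in *Lpin1*-/- liver left few. With 0.5 added to each count, the ratio of an exon with almost no skipping counts follows the reads of its gene. A *Glyat* exon (chr19:12650257-12650428) was included at 99.8% to 100% in every fasted library, yet had a log2 ratio of -2.62 ± 0.93. Its inclusion counts were 10137, 16114, and 14268 in fasted *Lpin1*+/+ and 4598, 4318, and 3569 in fasted *Lpin1*-/- liver.

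In each gene the event with the most counts of its rarer form was taken as the example, whatever its change. In *Glyat* it was a stretch of 191 bases at chr19:12639493-12639683 that matches no annotated exon at both ends. Inclusion was 1.78%, 1.997%, and 2.40% in fasted *Lpin1*+/+ liver and 4.76%, 5.49%, and 4.57% in fasted *Lpin1*-/- liver. In refed liver it was 2.06%, 2.46%, and 2.15% against 3.53%, 3.40%, and 3.603%. The genotypes did not overlap in either state, but the log2 ratios of 1.31 ± 0.64 and 0.68 ± 0.53 did not pass (limma, adjusted p = 0.216 and 0.614). Inclusion counts were 115, 186, and 203 in fasted *Lpin1*+/+ and 100, 128, and 104 in fasted *Lpin1*-/- liver, while skipping counts were 1668, 2397, and 2165 against 525, 579, and 570. The counts of the form with the stretch were thus closer between genotypes than those of the form without it.

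*Acsm5* had an annotated exon of 90 bases (chr7:119527304-119527393) included at 15.98% to 23.05% in fasted *Lpin1*+/+ and 19.4% to 27.4% in fasted *Lpin1*-/- liver, and 19.2% to 23.8% against 17.3% to 19.7% in refed liver, with adjusted p from limma of 0.846 and 0.803. The event nearest to a call in refed liver was another *Acsm5* exon, of 128 bases (chr7:119540605-119540732), which was chosen after its values were seen. It was included at 99.6%, 100%, and 100% in *Lpin1*+/+ and 97.0%, 97.6%, and 97.7% in *Lpin1*-/- liver (limma, adjusted p = 0.0541), on 2, 0, and 0 against 7, 5, and 6 skipping counts. It was called with a minimum of 20 counts (adjusted p = 0.0462) and with 1 added to each count (adjusted p = 0.0215). In *Acsm3* the example stretch of 61 bases (chr7:119766514-119766574) was included at 14.9% to 19.5% in fasted *Lpin1*+/+ and 4.32% to 17.6% in fasted *Lpin1*-/- liver, overlapping ranges.

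**Figure D4:**
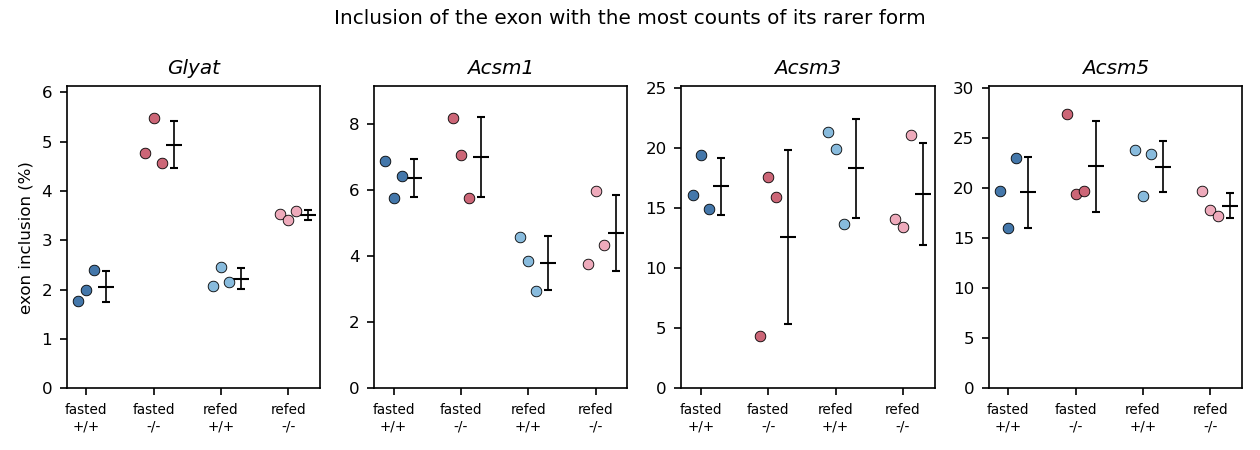
Exon inclusion (percent of length-normalized counts, axis from 0) in each library for the event with the most counts of its rarer form in *Glyat*, *Acsm1*, *Acsm3*, and *Acsm5*, with the mean and SD of 3 libraries. For *Glyat* the *Lpin1*-/- points, 3.40% to 5.49%, lie above the *Lpin1*+/+ points, 1.78% to 2.46%. The groups of the other 3 genes overlap, and the *Acsm1* event is another one in fasted than in refed liver.

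The other genes of the pathway were taken from 5 lists with 96 genes, of which 83 were tested. These lists were drawn up with earlier results of these data known, and the shares and p-values take no account of that. In fasted liver 31 of the 83 were called lower in *Lpin1*-/- and 3 higher, which is 37.3% lower and 3.61% higher against 13.2% and 5.63% of all genes tested, with a median log2 difference of -0.69 against -0.14. In refed liver 11 were called lower and 5 higher, 13.3% and 6.02% against 4.07% and 2.60% of all genes, with a median of -0.26 against -0.07. After rescaling the refed split was 6 lower and 5 higher, and with the replicate number as a block in the refed libraries alone 8 genes were called. The feeding response in *Lpin1*+/+ liver had 0 called genes by limma, with 16 at an unadjusted p below 0.05, while that in *Lpin1*-/- liver had 17 higher and 1 lower, or 6 and 2 after rescaling. That is 21.7% called, close to the 20.7% of all genes, and 9.64% after rescaling, below the 15.9% of all genes. Leaving out 1 library took the refed genotype count of 16 to 9 and 8 without the first or the third refed *Lpin1*+/+ library and to 6 without any 1 of the refed *Lpin1*-/- libraries. The count of 18 for feeding in *Lpin1*-/- became 11 without the first fasted, 8 without the second refed, and 10 without the third refed *Lpin1*-/- library, and the count of 0 in *Lpin1*+/+ became 4 without the first fasted *Lpin1*+/+ library and 1 without the first fasted *Lpin1*-/- library.

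Among the other acyl-CoA synthetases, 4 of 14 tested genes were called lower and 1 higher in fasted *Lpin1*-/- liver, and 3 lower and 0 higher in refed liver. *Acsf2*, a mitochondrial synthetase that also acts on medium-chain acids, was 53.0, 27.7, and 43.2 RPKM in fasted *Lpin1*+/+ and 7.99, 14.5, and 12.5 RPKM in fasted *Lpin1*-/- liver. It was lower in both states, by log2 differences of -1.73 ± 0.26 and -1.78 ± 0.26 (limma, adjusted p = 0.00159 and 0.00408). *Acsl1*, which activates long-chain fatty acids for oxidation and lipid synthesis, was lower in fasted liver (-1.80 ± 0.46, adjusted p = 0.0198, lost under 3 of 18 alternatives), and *Acss2*, which makes acetyl-CoA from acetate, was lower in both (-1.05 ± 0.24 and -0.97 ± 0.24), the refed call being lost under 9 of 19. *Acsl3*, a long-chain synthetase of lipid droplets, was higher in fasted (1.04 ± 0.20) and lower in refed *Lpin1*-/- liver (-1.23 ± 0.20), with non-overlapping groups both times. *Aacs*, which activates acetoacetate, rose with feeding in *Lpin1*-/- liver (2.11 ± 0.45, limma adjusted p = 0.00845).

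Among the other genes of acyl-CoA conjugation and hydrolysis, 8 of 18 tested were called lower and 0 higher in fasted *Lpin1*-/- liver, while 3 were higher and 1 lower in refed liver. *Glyatl3*, the remaining glycine acyltransferase relative, was at 0 to 0.0318 RPKM and was not tested. *Baat*, which joins glycine or taurine to bile acids, had 181.8, 217.0, and 190.8 RPKM in fasted *Lpin1*+/+ and 116.2, 77.1, and 77.3 RPKM in fasted *Lpin1*-/- liver (-1.14 ± 0.22, limma adjusted p = 0.00551). In refed liver its difference was 0.48 ± 0.22 (adjusted p = 0.224). *Acnat1*, a relative of *Baat* for fatty acyl-CoAs, was lower in fasted liver (-2.88 ± 0.27, adjusted p = 0.000181) with 1.29 to 2.03 RPKM in *Lpin1*-/- against 14.3 to 24.6 RPKM, and had -0.35 ± 0.27 in refed liver (adjusted p = 0.478). *Acnat2* was higher in refed *Lpin1*-/- liver (2.02 ± 0.53, adjusted p = 0.0464), a call lost under 10 of 19 alternatives, with adjusted p up to 0.144. *Crot*, which moves medium-chain acyl groups from CoA to carnitine in peroxisomes, was lower in both states (-1.83 ± 0.27 and -1.81 ± 0.27).

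Of the 20 genes of medium- and short-chain acyl-CoA oxidation, 10 were called lower and 0 higher in fasted *Lpin1*-/- liver, and 4 lower and 0 higher in refed liver, none of which stayed called after rescaling. *Acat1*, the mitochondrial acetoacetyl-CoA thiolase, was 287.7, 581.7, and 563.8 RPKM in fasted *Lpin1*+/+ and 126.3, 116.9, and 139.2 RPKM in fasted *Lpin1*-/- liver. Its log2 differences were -1.83 ± 0.31 fasted and -1.45 ± 0.31 refed (limma, adjusted p = 0.00286 and 0.0211). *Hadhb*, a subunit of the trifunctional protein, was lower in fasted liver (-1.45 ± 0.25), and *Hadh*, a short-chain hydroxyacyl-CoA dehydrogenase, and *Eci1*, an enoyl-CoA isomerase, were lower in refed liver (-1.34 ± 0.25 and -1.30 ± 0.26). With the replicate number as a block in the refed libraries alone, the calls of *Acat1* (adjusted p = 0.0613) and *Eci1* (0.0685) were lost.

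Of 19 tested genes that supply or use glycine, 6 were lower and 2 higher in fasted *Lpin1*-/- liver, and 1 lower and 2 higher in refed liver. *Amt*, a part of the glycine cleavage system, was lower in fasted liver at 5.597 to 10.5 RPKM against 36.2 to 41.2 RPKM (-2.19 ± 0.27, limma adjusted p = 0.000598). *Shmt1*, which interconverts serine and glycine in the cytosol, was lower in fasted liver (-1.62 ± 0.26) and had 0.19 ± 0.26 in refed liver (adjusted p = 0.71). *Agxt*, which makes glycine from glyoxylate, was higher in both states (1.41 ± 0.44 and 1.75 ± 0.44, adjusted p = 0.0447 and 0.0391), and *Gnmt*, which methylates glycine, was higher in refed liver (1.19 ± 0.26, adjusted p = 0.0216). The *Agxt* calls were lost under 11 of 18 alternatives in fasted liver (adjusted p up to 0.158) and 11 of 19 in refed liver (up to 0.117). With the replicate block in refed liver *Agxt* (0.0622) and *Gnmt* (0.0857) were not called.

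Of the 12 genes of CoA synthesis and recycling, 3 were lower and 0 higher in fasted *Lpin1*-/- liver, and 2 lower and 0 higher in refed liver. The fasted share of 25% is close to the 18.8% of all genes called, and it was 16.7% after rescaling. *Vnn1* was 8.54, 22.1, and 45.3 RPKM in fasted *Lpin1*+/+ and 0.495, 0.728, and 0.780 RPKM in fasted *Lpin1*-/- liver. Its log2 differences of -3.70 ± 0.54 fasted and -3.90 ± 0.54 refed (limma, adjusted p = 0.00138 and 0.00267) stand beside -4.24 and -3.25 for *Gm4952*. *Pank1*, a pantothenate kinase that starts CoA synthesis, was lower in fasted liver (-1.65 ± 0.42, adjusted p = 0.0185, lost under 4 of 18 alternatives) and had 0.00 ± 0.42 in refed liver.

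**Figure D5:**
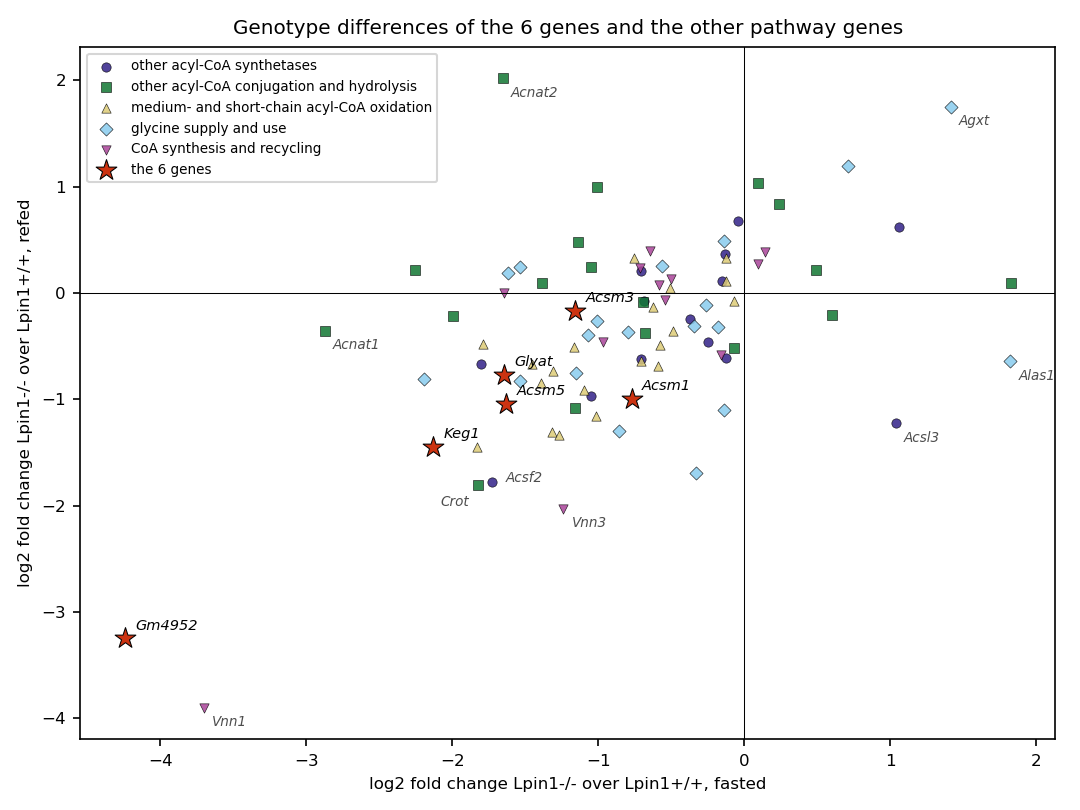
Genotype difference (log2 fold change of *Lpin1*-/- over *Lpin1*+/+) in fasted liver (x axis) against refed liver (y axis) for the 6 genes (stars) and the 83 tested genes of the 5 lists (symbols by list), n = 3 libraries per group. *Gm4952* and *Vnn1* stand at the lower left, and most points lie left of 0 on the x axis.

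Defining markers of other cells were read in the same libraries. The 8 hepatocyte markers summed to 41633 to 88331 RPKM, and 0 of 8 were called in the genotype comparisons by limma, with 1 at an unadjusted p below 0.05 in fasted and 1 in refed liver. The 9 kidney markers, read because the glycine acyltransferases are also kidney genes, summed to 0.0127 to 0.0671 RPKM in *Lpin1*+/+ and 0.1995 to 0.633 RPKM in *Lpin1*-/- libraries, with 1 marker at 0 throughout. The 9 Kupffer cell markers summed to 189.7 to 385.1 RPKM in fasted *Lpin1*+/+, 362.4 to 992.3 in fasted *Lpin1*-/-, 105.4 to 904.0 in refed *Lpin1*+/+, and 114.5 to 267.9 in refed *Lpin1*-/- liver. By limma 0 of these 9 were called in either genotype comparison. The 7 stellate cell markers summed to 74.1 to 173.6 RPKM in fasted *Lpin1*+/+ and 208.8 to 304.4 RPKM in fasted *Lpin1*-/- liver. A single stellate marker reached 264.3 RPKM in 1 library, so 1 gene can carry the sum. In each genotype comparison 0 of these 7 were called, with 2 at an unadjusted p below 0.05 (limma). The 7 pericentral hepatocyte markers summed to 7308 to 8972 RPKM in fasted *Lpin1*+/+ against 2056 to 6482 RPKM in fasted *Lpin1*-/- liver. Of these 7, 2 were called by limma, where 18.8% of all genes were, and their median log2 difference was -0.30. In refed liver the sums overlapped, at 2657 to 8029 RPKM against 4554 to 5320 RPKM, and 0 were called. A single pericentral marker reached 7925 RPKM in 1 library. The 7 periportal markers had 1 called in fasted and 3 in refed liver, where they summed to 1623 to 2889 RPKM in *Lpin1*+/+ and 4308 to 5568 RPKM in *Lpin1*-/-. The 7 endothelial markers had 1 called in fasted liver and summed to 26.5 to 69.5 RPKM over all libraries. The 6 cholangiocyte markers summed to 457.1 RPKM in 1 fasted *Lpin1*-/- library, with a highest single marker value of 430.4 RPKM. By limma 0 of these 6 were called in either genotype comparison. The part of these cells in the differences of the 6 genes was not tested.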

How the data were processed

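Liver RNA of 12 mice was sequenced as 69 bp pairs. The authors aligned reads with HISAT2 (2.0.5, per the submitters' processing notes) to GRCm38, counted them with htseq-count (0.6.0), and deposited RPKM for 22456 genes. Skipped exon events came from rMATS, and the inclusion and skipping counts that the authors deposited for each library were used, but not the p-values beside them. The 6 genes, the gene lists, and the tests were chosen with earlier results of these data known. Genes whose mean reached 0.5 RPKM entered 1 fit of log2(RPKM + 1) over the 4 groups, by limma (3.58.1, R 4.3.3) with a trend in the variance, and p-values were adjusted over 11507 genes. Events with at least 10 counts in each of the 6 libraries of a feeding state were compared as log2 ratios with 0.5 added. The group of each list of event counts follows the order of genotypes in the table name, and identical counts in the feeding table of *Lpin1*+/+ liver matched it. Named pathway genes are up to 3 per list, comparison, and direction with the largest called change and groups that do not overlap, besides *Glyatl3*, *Baat*, *Acsm2*, and *Acsm4*. The fits were tested on simulated data. No source ties the replicate numbers to a litter or day. Deviations from the group means of the 3 same-numbered pairs correlated at 0.16 to 0.30 in the refed genotype comparison, all above 0.1. They correlated at -0.47 to -0.23 in the fasted one, -0.016 to 0.25 for feeding in *Lpin1*+/+, and -0.44 to -0.20 for feeding in *Lpin1*-/-. Same-numbered fasted *Lpin1*+/+ and refed *Lpin1*-/- mice, which no comparison sets side by side, had 0.39 to 0.74. Mice of different numbers in those 2 groups reached 0.63. The correlations therefore do not show that the numbers pair mice, and the block in the refed libraries is an alternative only. Alternatives were a pseudocount of 0.1, no filter, a minimum of 5 RPKM, rescaling by median ratio, fits restricted to the libraries compared, a replicate block, and leaving out 1 library at a time. Depth is known only relative between libraries. The spread between 3 mice sets the precision.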

Additional observations from a re-analysis of the deposited data

Results flagged for a closer look

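For 6 of the 83 tested pathway genes the feeding response differed between the genotypes by the interaction test of the limma fit over all genes, a test of the difference itself. That is 7.23% against 1.28% of all genes tested. After rescaling it was 3.61% against 2.80%, close to the share of all genes. The interaction, given as the log2 response of *Lpin1*-/- minus that of *Lpin1*+/+, was 3.67 for *Acnat2* (adjusted p = 0.0399), 2.52 for *Acnat1* (0.0136), 1.81 for *Shmt1* (0.0398), 1.62 for *Baat* (0.0334), and 1.30 for *Them4* (0.0491), an acyl-CoA thioesterase chosen here after its value was seen. It was -2.26 for *Acsl3* (0.00664), whose refed libraries were all above the fasted ones in *Lpin1*+/+ and all below them in *Lpin1*-/- liver. The call of *Acsl3* held under the 16 alternatives in which it was tested, that of *Acnat1* was lost without the third refed *Lpin1*-/- library (adjusted p = 0.0544), and those of *Acnat2*, *Baat*, *Shmt1*, and *Them4* were lost under 10, 12, 13, and 14 of 17 alternatives. The interaction of the 6 glycine acyltransferase and ACSM genes was not tested. Groups of 3 are too small to single out a library by its distance from the others.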

How the results depend on the processing

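The refed genotype differences of *Gm4952*, *Glyat*, *Keg1*, *Acsm1*, and *Acsm5* stayed below 0 under every alternative. *Acsm3* in refed liver ranged from -0.54 to 0.074 with 1 library left out, and changed sign, to 0.074 without refed *Lpin1*+/+ library 3 and to 0.0041 without refed *Lpin1*-/- library 1. No count of calls is given for the 6 genes, because their levels were known when they were taken. The pathway genes called were 34 in fasted liver (24 to 40 with 1 library left out, 22 with only the libraries compared) and 16 in refed liver (6 to 19 with 1 left out, with 9 and 8 without refed *Lpin1*+/+ library 1 or 3 and 6 without any refed *Lpin1*-/- library). The feeding response of *Lpin1*+/+ had 0 (0 to 4, the latter without the first fasted *Lpin1*+/+ library, and 1 with no filter). That of *Lpin1*-/- had 18 (8 to 22, with 11 without fasted *Lpin1*-/- library 1, 8 and 10 without refed *Lpin1*-/- library 2 or 3, and 8 after rescaling). The interaction had 6 (1 to 8, with 2 with no filter and 3 after rescaling), and fits without 1 library other than the first of fasted *Lpin1*+/+ or *Lpin1*-/- moved it to 3 or fewer. Exon events of the 6 genes went from 0 to 3 in fasted liver with 1 added to each count and stayed at 0 to 2 with 1 library left out. In refed liver they went from 0 to 1 with a minimum of 20 counts or 1 added, and were 0 with 1 library left out. Of all events, those refed fits called 15 without the second listed *Lpin1*-/- library and 0 without any other. They could therefore not show whether the 0 of the 6 genes is stable. The cause of these shifts was not tested. Of the named pathway gene values 721 were the same and 201 lost their call, and 0 changed sign.

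Among the 4 comparisons, all same-numbered pairs correlated above 0.1 in the refed genotype comparison only, which does not show that the numbers pair mice. A fit with the replicate number as a block in the refed libraries alone, chosen after seeing the data, called 8 pathway genes. With the block over all 4 groups, the pathway counts were 34, 13, 1, 16, and 3 for the fasted and refed genotype differences, the feeding responses of *Lpin1*+/+ and *Lpin1*-/-, and the interaction. No paired analysis was possible for exon events because their count lists carry no replicate numbers. Absolute depth is unknown, so no counting interval is given for RPKM.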
